A study of Mus musculus with 6 samples.

Results

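Transcript levels of 5 chemokine genes, Xcl1, Ccl5, Ccl3, Ccl4 and Ccl1, are described in mouse iNKT cells, the T lymphocytes with an invariant receptor for lipids shown by CD1d. The genes were chosen by name, as chemokines produced by the NKT1 subset of these cells, and a gene was read from the row of the array table that carries its symbol alone. Each of the 5 genes had 1 such row, among 22180 genes with a row of their own. The WT group consisted of iNKT cells of control mice, and the PLZF_ON group of iNKT cells of mice in which PLZF, the transcription factor encoded by Zbtb16, is present in a constitutively acetylated form. Each group had 3 arrays, and the series names replicates 1 and 2 of both groups (4 arrays) as those it analysed. The promoter or cell type that drives the altered protein is not given in the sources used here, nor are age, organ or cell isolation.

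Chemokines are small secreted proteins that direct the migration of leukocytes by binding G protein-coupled receptors. Xcl1 (lymphotactin) binds Xcr1 on cross-presenting dendritic cells, Ccl3 and Ccl4 (the macrophage inflammatory proteins) and Ccl5 (RANTES) attract T cells and monocytes, and Ccl1 is a ligand of Ccr8. NKT1 cells, the interferon-gamma-producing subset that depends on the transcription factor T-bet, are known for prompt release of these chemokines, together with cytokines, once their receptor is engaged.

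The labelled cell type was checked against markers. All 10 measured T cell markers, such as Cd3e, lay on each of the 6 arrays above 5.21, the 95th percentile of the mean log2 levels of 1394 olfactory and vomeronasal receptor genes, which serve here as a guide to background. Mast cell and basophil markers lay at or below it on every array (10 of 10 measured), and 8 of 9 measured B cell markers did so too. The other lists were less clear. At or below it on every array were 5 of 12 macrophage and monocyte, 5 of 10 neutrophil and 5 of 9 dendritic cell markers. The counts were 6 of 11 for stromal and epithelial, 1 of 7 for NK cell, 0 of 2 for CD8 T cell and 0 of 3 for erythroid and platelet markers. PLZF_ON replicate 3 stood apart, with correlations of 0.895 to 0.898 to the other 5 arrays across rows, where all other pairs lay between 0.957 and 0.973. Its values also spread less, with a median over all deposited rows of 5.012 and an SD of 1.79. The other 5 arrays had medians of 4.881 to 4.921 and SDs of 1.969 to 2.012. The neutrophil gene S100a8 was at 7.29 on that array alone, against 2.61 to 3.09 on the others. S100a9, Camp, Retnlg and Mpo also exceeded the guide there alone, while Ly6g (4.47) stayed within its WT range of 3.81 to 4.67. Cd8b1 was at 7.77 there, against 5.08 to 5.89 on the others. The differences of the 5 genes are therefore given over the 4 arrays, over all 6 and over the 5 without PLZF_ON replicate 3. Nothing in the labels says whether replicates are separate animals. The p-values therefore set each difference against a spread within groups that may be technical only. Precision is limited by the small number of arrays.

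Xcl1 was the 1 gene of the 5 whose groups lay apart. WT replicates 1, 2 and 3 read 10.57, 10.30 and 10.84 on the log2 scale, and the same-numbered PLZF_ON arrays 9.69, 8.34 and 9.34. All 3 PLZF_ON arrays thus lay below all 3 WT arrays, and PLZF_ON replicate 2 was the lowest. Over the 4 arrays the PLZF_ON mean was 1.42 below the WT mean, a 2.68-fold difference (log2 difference -1.42, SE 0.41, 95% interval -2.43 to -0.41, n = 2 arrays per group, limma adjusted p = 0.342, unadjusted p = 0.0136). Over 6 arrays the log2 difference was -1.45 (SE 0.34, 95% interval -2.24 to -0.67, n = 3 arrays per group, limma adjusted p = 0.329), and over 5 arrays -1.56 (SE 0.37, limma adjusted p = 0.184). The difference therefore did not pass after adjustment over 23521 tested rows, although its intervals excluded 0. Ordered from the lowest difference, Xcl1 was number 72 of the 23521 rows over the 4 arrays and number 71 over the 6. Its size depended on the PLZF_ON array used, since the 4-array difference was -0.75 without PLZF_ON replicate 2 and -2.10 without PLZF_ON replicate 1. Such fits keep 1 PLZF_ON array against 2 WT arrays, so that their spread comes from the WT arrays alone and the lone array is assumed to vary as they do; their p-values (limma adjusted p = 0.467 and 0.0625) carry that assumption.

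Of the 5 genes, 0 passed limma adjusted over all rows in the 4-array, 5-array or 6-array comparison, where 0.17%, 0.455% and 0.0935% of all rows passed. Over the 6 arrays 0.068% of rows passed as lower and 0.0255% as higher. At an unadjusted p of 0.05, which 9.41%, 9.7% and 5.77% of rows reached, 1 of the 5 genes, Xcl1, was under the threshold in each comparison, as lower. The share of rows lower at that threshold was 4.53% over 4, 4.66% over 5 and 3.32% over 6 arrays. Groups that did not overlap with PLZF_ON lower were found for 1 of the 5 genes, Xcl1, in 4 and in 6 arrays, and for 19.3% and 6.22% of all rows. None of the 5 genes had PLZF_ON apart and higher, as 18.9% and 5.55% of rows had. The difference was below 0 for 2 of the 5 genes over 4 arrays and 3 over 6, beside 50.7% and 45.1% of rows. In these bulk samples fewer cells of a kind and less RNA per cell cannot be told apart.

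**Figure D1:**
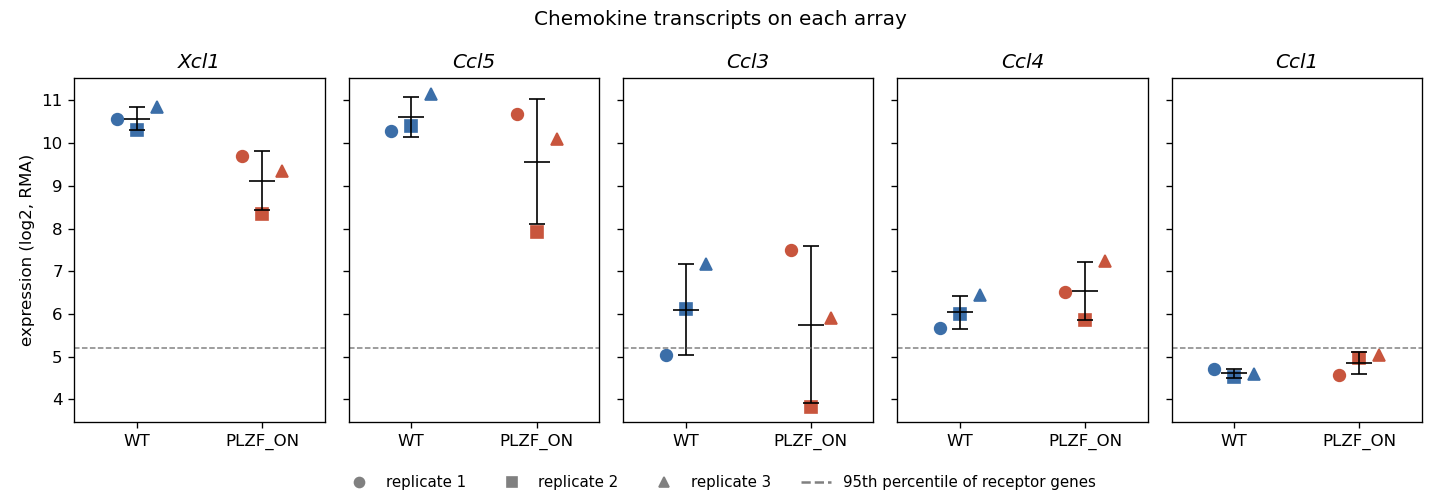
Log2 expression (y axis) of the 5 chemokine genes in WT (blue) and PLZF_ON (red) arrays, a panel per gene, with a symbol per replicate and the mean and SD of 3 arrays in black; the dashed line is the 95th percentile of receptor genes (5.21). Xcl1 separates the groups, Ccl5 and Ccl3 are lowest in PLZF_ON replicate 2, and Ccl1 stays under the line on all 6 arrays.

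The stretch before the Xcl1 start is shown because Xcl1 was the gene with separated groups, and that of Ccl3 because Ccl3 varied most between arrays of a group. Both are the 250 bases before the gene start on the minus strand, from RefSeq in build GRCm38.p6, at chr1:164935523-164935772 for Xcl1 and chr11:83649379-83649628 for Ccl3, written in the direction of transcription. Capitals mark matches to letters chosen after the sequences had been seen.
Xcl1: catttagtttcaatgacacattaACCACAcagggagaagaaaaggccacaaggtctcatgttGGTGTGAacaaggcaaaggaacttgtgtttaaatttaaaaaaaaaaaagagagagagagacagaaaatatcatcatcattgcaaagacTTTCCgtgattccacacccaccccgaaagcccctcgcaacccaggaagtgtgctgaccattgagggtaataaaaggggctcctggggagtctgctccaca
Ccl3: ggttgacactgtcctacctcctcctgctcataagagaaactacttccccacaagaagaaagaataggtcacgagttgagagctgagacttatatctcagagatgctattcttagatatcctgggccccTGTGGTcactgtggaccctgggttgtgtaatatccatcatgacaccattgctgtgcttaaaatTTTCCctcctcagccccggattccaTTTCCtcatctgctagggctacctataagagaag
The letters searched, on both strands, were TCACACC for T-box factors such as T-bet, TGTGGT for RUNX factors, GGAAA for NFAT, the NF-kB motif, TGANTCA for AP-1 and TATAAA for a TATA box. Xcl1 held a T-box match 188 to 182 bases before its start, a RUNX match at 227 to 222 and an NFAT match at 100 to 96. Ccl3 held a RUNX match at 122 to 117 and NFAT matches at 59 to 55 and at 34 to 30, and no T-box match. The Ccl1 stretch held 3 NFAT matches and no T-box or RUNX match. Letters for NF-kB, AP-1 and the TATA box were not in these 3 windows, and no matches overlapped. Of 32851 windows of the same length before gene starts, 3.33% held the T-box letters, 14.0% the RUNX letters, 55.6% the NFAT letters, 1.41% the NF-kB letters, 6.75% the AP-1 letters and 12.4% the TATA letters. The table matched 3 of the 5 genes, and Ccl4 and Ccl5 are named only.

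Ccl5 was low in a single array. WT replicates 1, 2 and 3 read 10.29, 10.40 and 11.15 on the log2 scale, and the same-numbered PLZF_ON arrays 10.69, 7.91 and 10.10. The groups overlapped, because PLZF_ON replicate 1 lay above WT replicates 1 and 2 while PLZF_ON replicate 2 lay far below every other array. The log2 difference was -1.04 over the 4 arrays (SE 0.81, 95% interval -3.01 to 0.93, limma adjusted p = 0.806), -1.31 over 5 (SE 0.72, limma adjusted p = 0.649) and -1.04 over 6 (SE 0.65, 95% interval -2.55 to 0.47, limma adjusted p = 0.941). Without PLZF_ON replicate 2 the 4-array difference had the opposite sign, 0.35, and without PLZF_ON replicate 1 it was -2.43. The latter had a limma adjusted p of 0.0393, but with 1 PLZF_ON array left this p rests on the spread of 2 close WT arrays (SE 0.17, against 0.81 with both PLZF_ON arrays) and is not read as a call.

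Ccl3 varied still more. WT replicates 1, 2 and 3 read 5.03, 6.11 and 7.17 on the log2 scale, and the same-numbered PLZF_ON arrays 7.50, 3.83 and 5.90. The highest and the lowest of the 6 values were both PLZF_ON arrays, and WT replicate 1 and PLZF_ON replicate 2 lay under the background guide of 5.21. The log2 difference was 0.09 over the 4 arrays (SE 1.10, 95% interval -2.60 to 2.78, limma adjusted p = 0.992), -0.44 over 5 (SE 1.04, limma adjusted p = 0.946) and -0.36 over 6 (SE 0.89, 95% interval -2.43 to 1.70, limma adjusted p = 0.964). These intervals leave room for a difference of either sign larger than that of Xcl1. Without PLZF_ON replicate 1 the 4-array difference was -1.74, and without PLZF_ON replicate 2 it was 1.93.

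Ccl4, the close relative of Ccl3, kept a narrower range. WT replicates 1, 2 and 3 read 5.67, 6.0 and 6.45 on the log2 scale, and the same-numbered PLZF_ON arrays 6.51, 5.87 and 7.23. The groups overlapped, and the highest value was that of PLZF_ON replicate 3, the array that stood apart. The log2 difference was 0.36 over the 4 arrays (SE 0.24, 95% interval -0.23 to 0.95, limma adjusted p = 0.76), 0.15 over 5 (SE 0.27, limma adjusted p = 0.919) and 0.50 over 6 (SE 0.35, limma adjusted p = 0.941). In the gene table the Ccl4 model overlaps that of Ccl3, and the Ccl5 model that of the predicted gene Gm32650. Neither the strand nor the position of the probes is known from the files used, so how far the rows are separate was not tested.

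Ccl1 was not shown to be above background on any array. WT replicates 1, 2 and 3 read 4.72, 4.52 and 4.59 on the log2 scale, and the same-numbered PLZF_ON arrays 4.56, 4.96 and 5.03, all under 5.21. The groups overlapped, with a log2 difference of 0.14 over the 4 arrays (SE 0.18, 95% interval -0.30 to 0.58, limma adjusted p = 0.904), 0.15 over 5 (SE 0.16, limma adjusted p = 0.844) and 0.24 over 6 (SE 0.18, limma adjusted p = 0.941). The name of the group as chemokines made by NKT1 cells is thus not borne out for Ccl1 in these samples.

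The spread between arrays of a group differed widely among the 5 genes. Pooled over both groups of 3, the within-group SD was 1.51 for Ccl3, larger than that of 99.9% of tested rows, and 1.09 for Ccl5, larger than that of 99.6%. It was 0.55 for Ccl4 and 0.53 for Xcl1, larger than that of 93.2% and 92.2% of rows, and 0.19 for Ccl1, larger than that of 33.8%. Ccl3 and Ccl5 followed each other over the 6 arrays (Pearson r = 0.87, exact permutation p = 0.0111, and 0.0667 after Benjamini-Hochberg adjustment over 6 gene pairs; Spearman rho = 0.89, exact permutation p = 0.0333, adjusted 0.2). Without PLZF_ON replicates 1 and 2, the arrays farthest from the Ccl3 median, r was 0.82. After adjustment this relation did not pass, and the adjusted p of r was 0.304 or more for the other 5 pairs among Ccl1, Ccl3, Ccl4 and Ccl5. Xcl1 was left out of the pairs because its groups lay apart. Without a test, its r over the 6 arrays was 0.866 with Ccl5, close to that of Ccl3 with Ccl5. It was 0.573 with Ccl3, -0.12 with Ccl4 and -0.717 with Ccl1.

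**Figure D2:**
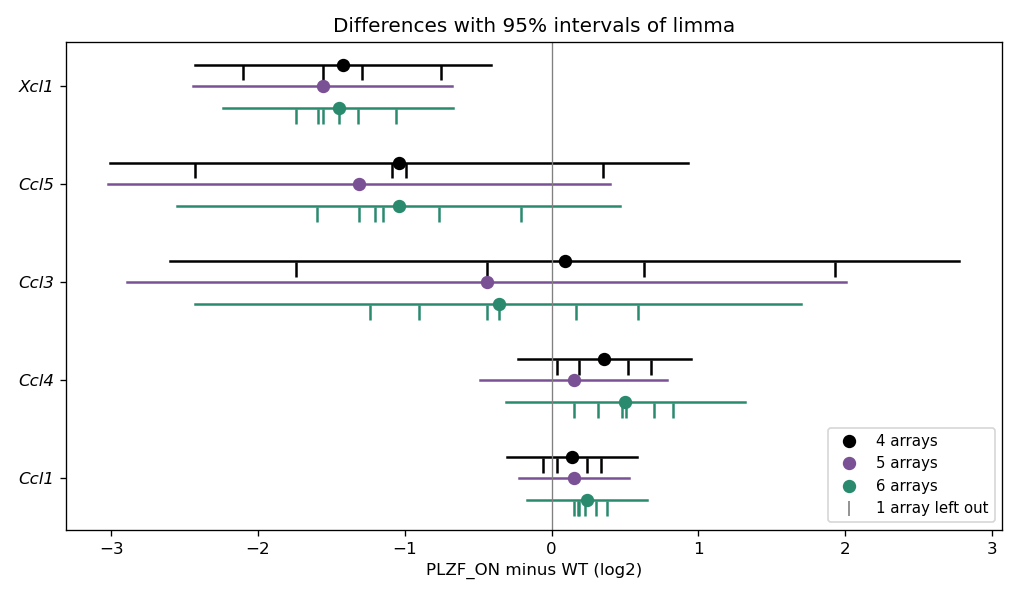
PLZF_ON minus WT on the log2 scale (x axis) for each gene, as points with 95% limma intervals over 4 (black), 5 (purple) and 6 arrays (green); ticks under the 4-array and 6-array lines give the differences with 1 array left out. All Xcl1 values lie below 0, from -2.10 to -0.75, while those of Ccl3 run from -1.74 to 1.93 and those of Ccl5 from -2.43 to 0.35.

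The remaining chemokine genes gave little signal in these cells. Of 33 listed, 31 had a row of their own, and 20 of them lay at or below the background guide on all 6 arrays. Over the 4 arrays 18 were lower and 13 higher in PLZF_ON with a median log2 difference of -0.03, beside 0.00 for all genes, and limma called 0 after adjustment and 1, Cxcl10, at an unadjusted p of 0.05. Over 6 arrays 7 were lower and 24 higher (median 0.11, beside 0.03 for all genes), again with 0 called and only Cxcl10 at an unadjusted p of 0.05. That threshold was reached by 9.41% of all rows over 4 arrays and 5.77% over 6. Over the 5 arrays without PLZF_ON replicate 3, 21 were lower and 10 higher (median -0.05, beside -0.01 for all genes). The part of the smaller spread of values on that array in this change was not tested. Cxcl10, a ligand of Cxcr3, read 4.80, 5.13 and 5.24 on WT arrays 1, 2 and 3 and 4.50, 4.06 and 4.24 on PLZF_ON arrays 1, 2 and 3. Its groups did not overlap, but a single array, WT replicate 3, exceeded the guide, and the log2 difference of -0.68 (SE 0.20) did not pass over the 4 arrays (limma adjusted p = 0.348).

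Ccl1, Ccl3, Ccl4 and Ccl5 lie with other CC chemokine genes on chromosome 11, and Xcl1 lies on chromosome 1. The other chemokines of the clusters showed small 4-array differences. The log2 difference was -0.24 for Ccl8, -0.16 for Ccl6, -0.09 for Ccl2, -0.03 for Ccl12, 0.00 for Ccl7, 0.07 for Ccl9 and 0.22 for Ccl11, with limma adjusted p from 0.713 to 0.999. Counting 2 genes on either side of each described gene in the gene table, 7 neighbours other than these 5 genes had a row. Besides Ccl8, Ccl9 and Ccl12 they were Heatr9 beside Ccl5 (log2 difference -0.07), Tmem132e beside Ccl1 (-0.13) and 2 noncoding genes beside Xcl1 (0.20 and -0.41), and no neighbour passed over 4 or 6 arrays (lowest limma adjusted p = 0.536).

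**Figure D3:**
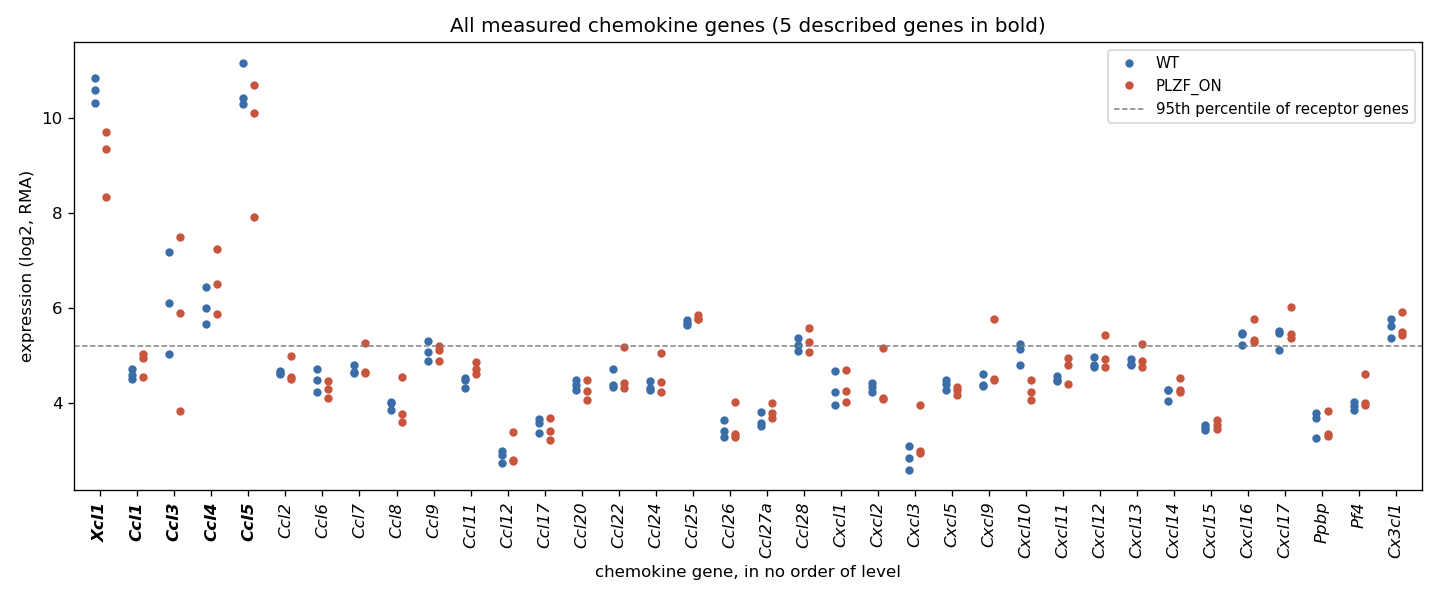
Log2 expression (y axis) of the 36 measured chemokine genes on the WT (blue) and PLZF_ON (red) arrays, a point per array, the 5 described genes first and in bold; the dashed line is the background guide of 5.21. Most of the remaining genes lie near or under the line in both groups.

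Of 5 receptors of these chemokines, limma called 0 after adjustment over 4, 5 or 6 arrays and 1, Ccr8, at an unadjusted p of 0.05. Of all rows 9.41%, 9.7% and 5.77% reached that threshold. Ccr8, the receptor of Ccl1, read 9.56, 9.48 and 9.06 on WT arrays 1, 2 and 3 and 6.90, 7.97 and 6.32 on PLZF_ON arrays 1, 2 and 3. Every PLZF_ON array lay more than 1 log2 unit below every WT array. The log2 difference was -2.08 over the 4 arrays (SE 0.33, limma adjusted p = 0.105), -2.30 over 6 (SE 0.39, limma adjusted p = 0.128) and did not pass over 5 either (limma adjusted p = 0.0637). The Ccl1 receptor thus had the largest difference of the ligands and receptors measured over the 4 arrays, while Ccl1 itself stayed under the guide. Xcr1, the receptor of Xcl1, had a 4-array log2 difference of 0.01, and Ccr1 and Ccr3, receptors of Ccl3 and Ccl5, of 0.22 and -0.10, all 3 under the guide on every array. The scavenging receptor Ackr2 had one of -0.04.

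Regulators known to act on chemokine genes in lymphocytes were lower for 13 of 19 measured genes over the 4 arrays (median log2 difference -0.21, beside 0.00 for all genes) and for 16 of 19 over 6 (median -0.46, beside 0.03). Without PLZF_ON replicate 2 the 4-array median was -0.11, and without PLZF_ON replicate 1 it was -0.37. Limma called 0 of them over the 4 arrays and 0 over 6, and 3 over 5 arrays, where 0.455% of all rows passed. At an unadjusted p of 0.05 the counts were 8 over 4 arrays and 5 over 6, beside 9.41% and 5.77% of rows. Tbx21, which encodes T-bet, read 8.76, 8.42 and 8.56 on WT arrays 1, 2 and 3 and 7.37, 6.75 and 7.58 on PLZF_ON arrays 1, 2 and 3, with no overlap. Its log2 difference was -1.53 over the 4 arrays (SE 0.24, limma adjusted p = 0.102), and it fell over 5 arrays, by 1.52 (limma adjusted p = 0.0407). Bhlhe40, a repressor of Il10 in T cells, had a 4-array log2 difference of -1.35 (limma adjusted p = 0.104) and also passed as lower over 5 arrays (limma adjusted p = 0.0407).

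Runx3, a partner of T-bet at cytokine genes, read 8.78, 8.69 and 8.88 on WT arrays 1, 2 and 3 and 7.69, 6.76 and 7.45 on PLZF_ON arrays 1, 2 and 3. Its groups lay apart as those of Xcl1 did, with a 4-array log2 difference of -1.51 (SE 0.30, limma adjusted p = 0.165). Irf4, induced by receptor signalling, was at 5.46, 5.91 and 5.72 in WT and 7.08, 7.08 and 5.57 in PLZF_ON. It rose over 5 arrays, by 1.38 (limma adjusted p = 0.0265), and not over 4 or 6 (limma adjusted p = 0.0739 and 0.884), PLZF_ON replicate 3 lying within the WT range.

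Genes of the NKT1 subset were lower as well. Of 22 such genes, all of them measured, 22 were lower over the 4 arrays (median log2 difference -1.60, beside 0.00 for all genes) and 21 over 6 (median -1.61, beside 0.03). Limma called 1 of them lower over the 4 arrays, Cd226, an adhesion receptor that binds nectins, and 2 over 6, Cd226 and Il12rb2, a chain of the interleukin-12 receptor, where 0.068% of all rows were called lower in each comparison. At an unadjusted p of 0.05 the counts were 16 and 18, beside 4.53% and 3.32% of rows. The log2 difference of Cd226 was -1.60 over the 4 arrays, -1.49 without PLZF_ON replicate 2 and -1.70 without PLZF_ON replicate 1. With the lone PLZF_ON array of those fits it did not pass (limma adjusted p = 0.241 and 0.0925). The median of the whole list was -0.99 without PLZF_ON replicate 2 and -2.06 without PLZF_ON replicate 1. Over 6 arrays no row of any kind was called by limma without WT replicate 1, WT replicate 2 or PLZF_ON replicate 2, so both calls were lost there (852, 960 and 1531 rows had an unadjusted p under 0.05). The list was written with earlier results of these samples known and is not independent support for its direction.

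Genes induced by the T cell receptor were divided. Over the 4 arrays 12 of 19 were higher and 7 lower (median 0.25, beside 0.00 for all genes), and over 6 arrays 7 were higher and 12 lower (median -0.12, beside 0.03). Limma called 0 of these over 4 or 6 arrays, with 7 and 4 at an unadjusted p of 0.05, beside 9.41% and 5.77% of all rows. Over 5 arrays, where 0.455% of rows passed, limma called 1, Egr2 (log2 difference 1.01, limma adjusted p = 0.0292). Nr4a1, Nr4a3 and Egr1, also induced by receptor signals, had 4-array log2 differences of 0.94, 0.63 and 0.50 and did not pass (limma adjusted p = 0.128, 0.247 and 0.268). Over 6 arrays these differences were 0.86, 0.35 and -0.18, so that Egr1 turned its sign with PLZF_ON replicate 3, where it was at 6.92. Among the WT arrays the immediate early genes Fosb and Jun, named after their values were seen, were lowest in replicate 1 (5.59 and 6.80) and highest in replicate 3 (8.80 and 9.25), the same arrays that were lowest and highest for Ccl3, Ccl4 and Ccl5. The part of these differences between WT arrays in the chemokine values was not tested.

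Markers of other cells moved with some of these values. The NK cell list, of which 7 of 10 genes were measured, had a summed level of 9.67 to 10.43 in WT on the log2 scale and of 8.40 to 10.28 in PLZF_ON. The 8.40 was PLZF_ON replicate 2, the array that was also lowest for Ccl3, Ccl5 and Xcl1. The activating receptor Ncr1 was at 4.8 and the transcription factor Eomes at 4.22 on it, both under the guide, against 7.65 and 6.33 in PLZF_ON replicate 1. Gzma, a granule protease, was at 6.06 in PLZF_ON replicate 2 and between 9.04 and 9.57 on the other 5 arrays. The integrin gene Itga2 of the same list was not low there, at 7.29, against 7.48 in PLZF_ON replicate 1 and 6.26 to 7.48 in WT. Ncr1 and Gzma are also in the NKT1 list and Eomes in that of regulators, and iNKT cells can express all 3 genes. The part of NK cells in the chemokine values was not tested.

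Neutrophils and macrophages also make Ccl3 and Ccl4. The neutrophil list (10 of 10 measured) had a summed level of 7.39 to 7.54 in WT and 7.34 to 9.06 in PLZF_ON, and the 9.06 was replicate 3, where Ccl4 was highest. S100a8 (7.29) and S100a9 (7.20) were the highest of the list on that array. Retnlg (5.47), Camp (5.34) and Mpo (5.25) also exceeded the guide there, and on no other array. Ngp (4.41) and Csf3r (4.23) were highest there too, but under the guide. Ly6g, Ltf and Elane lay within their WT ranges there, at 4.47, 4.70 and 4.10. At or below the guide on all 6 arrays were 5 of the 10 genes. The macrophage and monocyte list (12 of 12 measured) summed to 11.22 to 11.43 in WT and 9.97 to 10.79 in PLZF_ON. Most of that sum came from Ly6c2, which T cells express too. On all 6 arrays 3 of the 12 genes, Ly6c2, Cd68 and C1qa, were above the guide. C1qa was near it, at 5.44 to 5.80 in WT and 5.24 to 5.84 in PLZF_ON. At or below the guide on all 6 arrays were 5 of the 12, among them Adgre1 and Csf1r. Lyz2 was at 6.58 in PLZF_ON replicate 3 and at most 4.48 elsewhere, whereas Cd68 of the same list was lowest there, at 5.32 against 6.45 to 6.95. Markers of CD8 T cells, 2 of 2 measured, summed to 5.90 to 6.19 in WT and 5.79 to 8.29 in PLZF_ON, again with the highest sum in replicate 3. The part of such cells in the Ccl4 value of that array was not tested, and without it the Ccl4 log2 difference was 0.15.

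The sums of 2 further lists lay apart between the groups on all 6 arrays, but each leaned on few bright genes. The dendritic cell list (9 of 10 measured) summed to 9.14 to 9.31 in WT and 8.82 to 9.09 in PLZF_ON. Bst2 and Cd209a of this list were above the guide on all 6 arrays, and 1 of these 2 was its highest gene on each. Over 6 arrays 1 of the 9 genes lay apart as lower. Bst2 was at 7.70 to 8.35 in WT and 7.03 to 7.80 in PLZF_ON (4-array log2 difference -0.85, limma adjusted p = 0.376). Cd209a was at 7.12 to 7.30 in WT and 6.66 to 7.36 in PLZF_ON. Flt3, Xcr1, Siglech and Batf3 were under the guide on every array. The stromal and epithelial list (11 of 12 measured) summed to 9.03 to 9.34 in WT and 9.60 to 9.99 in PLZF_ON. In it Pecam1, an adhesion molecule of endothelium and leukocytes, was at 8.02 to 8.64 in WT and 8.67 to 9.56 in PLZF_ON (4-array log2 difference 1.01, limma adjusted p = 0.183). Pecam1 was the highest gene of this list on every array and weighs most in its sum. Over 6 arrays 3 of the 11 genes lay apart as higher. Krt8 was also above the guide on all 6 arrays, at 5.65 to 5.89 in WT and 5.90 to 6.43 in PLZF_ON. Krt18 exceeded it only in WT replicate 3 (5.22) and PLZF_ON replicate 3 (6.20). At or below the guide on all 6 arrays were 6 of the 11 genes, among them Cdh5, Kdr, Dcn and Epcam. The separation of the sums without these bright genes was not tested, nor was the part of such cells in the Xcl1 difference.

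The genes whose pattern over the 6 arrays was likest to each chemokine gene were found by Pearson r, among genes at least as bright as the median row and with at least 50% of that chemokine gene's SD. The r values describe the highest of many candidates over 6 arrays that share their groups, and carry no test. Predicted genes, small RNAs and sensory receptors were passed over, which left out 1 gene for Xcl1 and 1 for Ccl4. For Xcl1, among 2186 genes, the likest named were Tgif1, a homeobox repressor (r = 0.990), and Klrc2 and Klrd1, chains of the CD94-NKG2 lectin receptors (r = 0.988 each). Klrd1 read 10.41, 10.04 and 10.27 on WT arrays 1, 2 and 3 and 8.96, 7.10 and 8.32 on PLZF_ON arrays 1, 2 and 3, with the groups apart as for Xcl1.

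For Ccl3, among 656 genes, the likest were Eomes (r = 0.966), Tyrobp, the signalling adaptor DAP12 of NK receptors (r = 0.944), and the lectin receptor gene Klrb1b (r = 0.886), with Ccl5 next in order. Tyrobp read 6.98, 8.21 and 9.03 on WT arrays 1, 2 and 3 and 9.26, 6.96 and 8.54 on PLZF_ON arrays 1, 2 and 3, so that PLZF_ON replicate 1 was highest, as for Ccl3. For Ccl5, among 1241 genes, they were Gzma (r = 0.976), Klrb1b (r = 0.962) and the lectin receptor gene Klre1 (r = 0.948). For Ccl4 and Ccl1, among 5824 and 10604 genes, the r was 0.988 for Tmcc2, 0.979 for Smim27 and 0.976 for Psme2, a proteasome activator subunit, with Ccl4, and 0.981 for Smok2b, 0.975 for Rpusd2 and 0.970 for Cend1 with Ccl1.

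**Figure D4:**
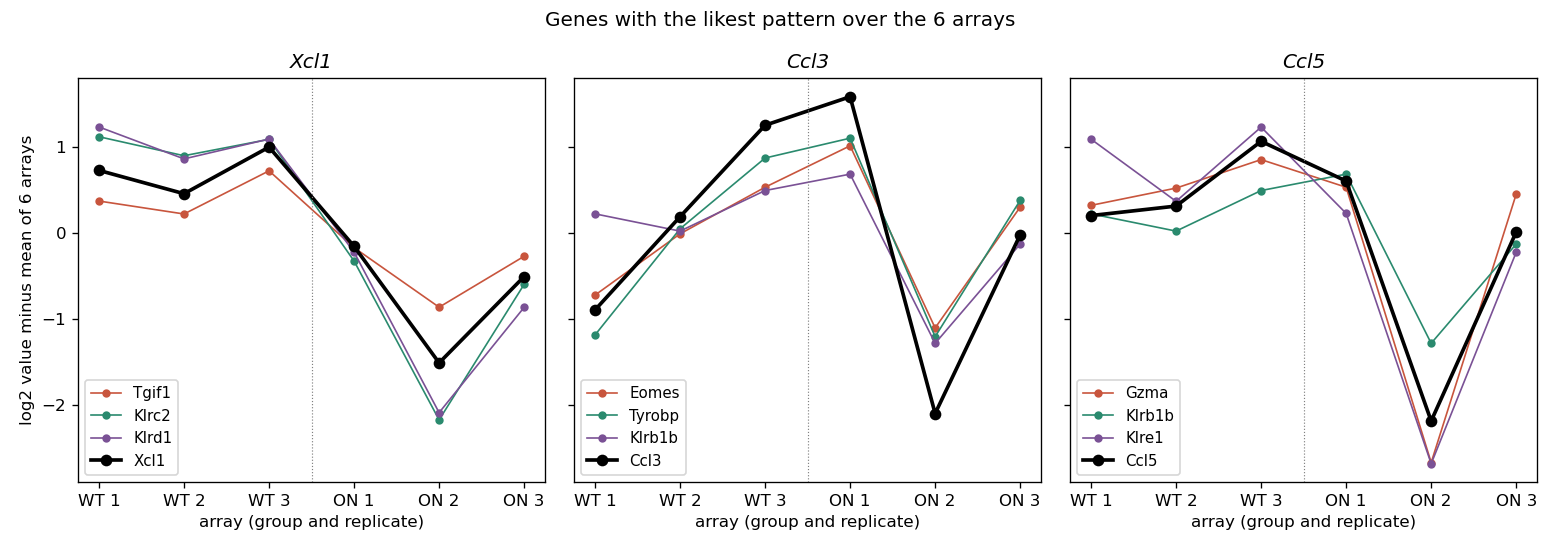
Log2 value minus the mean of the 6 arrays (y axis) on each array (x axis; ON stands for PLZF_ON, the number for the replicate) for Xcl1, Ccl3 and Ccl5 (black) and the 3 genes likest to each (colours); lines only join the points of a gene. The Xcl1 panel shows all PLZF_ON arrays under all WT arrays, while Ccl3 and Ccl5 themselves lie among or above the WT arrays in PLZF_ON replicate 1 and are lowest in PLZF_ON replicate 2.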

How the data were processed

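Biotin-labelled targets made from total RNA were hybridised to Affymetrix whole-transcript arrays, per the labels' protocols, which speak of frozen tissue. The authors deposited 1 log2 expression value per array row, made by RMA per the submitters' processing notes. The version of RMA is not given in the sources used here. Build and annotation behind the rows are not stated there either. RMA corrects background and normalizes arrays together, and it compresses changes of dim genes. The log2 values were used as deposited.

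Of 41345 rows, 23521 with exactly 1 gene symbol in the platform annotation were tested, without an intensity filter, and a gene was read from its row with the highest mean over 6 arrays. Gene order came from the NCBI gene table (GRCm38.p6), which 23328 tested rows matched by Entrez number. Groups came from the sample titles. PLZF_ON was compared with WT by limma 3.58.1 in R 4.3.3 (lmFit, eBayes, genotype as the only term, two-sided), adjusted by Benjamini-Hochberg over all tested rows at 0.05; standard errors and intervals are the moderated ones. Scripts were tested on simulated data. The 5 chemokine genes, gene lists, comparisons and the rule for named genes (the 5 genes, their receptors and cluster neighbours, up to 4 genes per list by the smallest p, the 3 likest genes) were chosen with earlier results of these data known; other genes named, among them S100a8, Cd8b1, Lyz2, Adgre1, Csf1r, Ly6c2, Fosb, Jun, Ncr1, Itga2, Cd68, Pecam1 and Cd3e, were chosen after their values were seen. Exact permutation tests of gene pairs used Python 3.11.15. No batch or scan date is given in the sources used here.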

Additional observations from a re-analysis of the deposited data

How the results depend on the processing

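Alternatives were another set of arrays, a replicate block, leaving out single arrays, centring by the median, a common SD, repeated quantile normalization, brighter rows, array weights, a trended variance prior, testing all deposited rows and averaging the rows of a gene; counts of the gene lists over 5 arrays or without PLZF_ON replicate 1 or 2 were added after seeing the data. Xcl1 and Ccl4 kept their direction under all 15 alternatives to the 4-array comparison and all 15 to the 6-array comparison, and Xcl1 passed in none (limma adjusted p from 0.0625 to 0.652 and from 0.0827 to 0.999). With 1 array left out, the 4-array log2 differences ran from -2.10 to -0.75 for Xcl1, from -2.43 to 0.35 for Ccl5, from -1.74 to 1.93 for Ccl3, from 0.04 to 0.68 for Ccl4 and from -0.06 to 0.34 for Ccl1. The 6-array differences ran from -1.74 to -1.06 for Xcl1, from -1.60 to -0.21 for Ccl5 and from -1.24 to 0.59 for Ccl3. Ccl3 also changed sign from the 4-array comparison (0.09) to 6 arrays (-0.36) and 5 arrays (-0.44). Without 1 of the 4 arrays an arm has a lone array, assumed to vary like the other group, and the Ccl5 difference without PLZF_ON replicate 1 had a limma adjusted p of 0.0393 on that assumption. Ccl1 is not among the brighter rows and has no value there.

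Rows called over the 4 arrays numbered 40, and 22 over all 6 arrays, 107 over 5, 101 with the replicate block, 0 among all deposited rows (limma, 3042 at an unadjusted p of 0.05) and from 0 (1803, without PLZF_ON replicate 2) to 106 (without WT replicate 2) with 1 array left out. The 22 rows called over 6 arrays became 5 with median centring, 259 with array weights, 0 among all deposited rows (2100) and from 0 (852, 960 and 1531 without WT replicate 1, WT replicate 2 and PLZF_ON replicate 2) to 107 (without PLZF_ON replicate 3) with 1 array left out. Of the remaining chemokine genes 18 of 31 were lower over the 4 arrays, 7 of 31 over 6, and 3 of the 6 among brighter rows. The cause of these changes was not tested, apart from the fewer genes among brighter rows.

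The replicate numbers were not taken to pair the samples. Deviations of same-numbered arrays correlated at 0.092, 0.253 and 0.239, and those of arrays with different numbers at -0.235 to 0.124. PLZF_ON replicate 1 correlated more with WT replicate 2 (0.124) than with WT replicate 1 (0.092), while every other array correlated best with its own number. These values do not settle whether the numbers pair the samples. With the block the log2 differences of the 5 genes were the same, and 0 passed by limma (adjusted p for Xcl1 0.144 over 4 and 0.137 over 6 arrays, both under an unadjusted p of 0.05; the other 4 were above it).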
